A study of Bombyx mori with 4 samples.

Results

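The protein-coding genes whose RNA level was lower in Siwi-depleted silkworm cells than in control cells are described here. They are the gene models annotated as protein-coding that had more than 10 RPKM (a read count scaled to the length of the sequence and to the genome-mapped reads) in at least 1 condition and a log2 fold change (FC) below -1, where FC is the ratio of RPKM + 1 in Siwi KD to that in Luc KD. Thus, 30 genes were chosen by their RPKM and FC, out of the 2617 expressed protein-coding genes, of 14300 protein-coding genes and of 18596 sequences in all. The values came from total RNA sequencing of BmN4 cells, a line of cultured silkworm (Bombyx mori) ovarian cells, electroporated with siRNA against luciferase (Luc KD, the control) or against Siwi (Siwi KD). Both conditions were thus siRNA-treated cultures of the same line, and neither was an untreated culture. Each condition had 2 libraries, which the authors merged, so every gene has 1 value per condition. The merged table allows no check against replicates, and the differences below carry no p-values. Where a counting error is given, it comes from the number of read pairs alone.

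Siwi is a silkworm PIWI protein that binds piRNAs, small RNAs of the germline, and cleaves transposon transcripts complementary to them. The cleavage takes place in nuage, perinuclear granules that contain the helicase Vasa, and the cut transcripts feed the production of further piRNAs bound to Ago3. Protein-coding mRNAs are not the main targets of this pathway, and loss of a PIWI protein is known chiefly for raising transposon RNA. The genes described here had less RNA in the knockdown. Gene models are listed by identifier only, without names, and of 16880 identifiers 0 matched the RefSeq gene table used here. The functions of the 30 genes, the level of Siwi mRNA as a check of the knockdown, and germ cell markers as a check of the cell line are therefore not given. Identifiers are printed for the 2 genes with the lowest FC, and the others are given by rank and length.

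The selected genes made up 1.15% of the 2617 expressed protein-coding genes. This share is fixed by the criteria and is a description. In the opposite direction, 43 genes (1.64%) had a log2 FC above 1, and among 389 expressed transposons 2 (0.514%) were below -1. The median log2 FC of all expressed protein-coding genes was -0.13, so a small part of each value below is common to the protein-coding genes as a whole. When FCs were taken relative to this median, 17 genes remained below -1 and 57 were above 1, and the lowered genes went from 41.1% to 23.0% of the genes past either threshold.

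**Figure D1:**
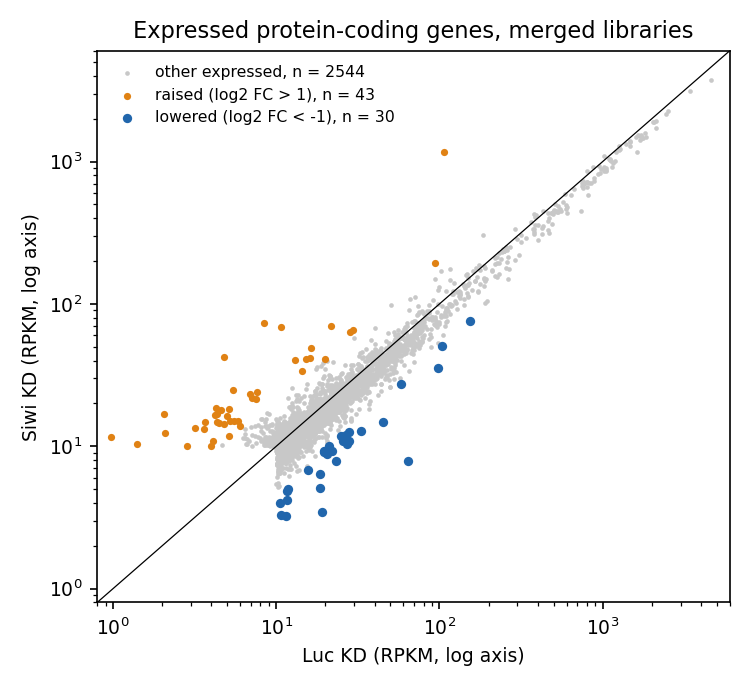
RPKM in Siwi KD (y axis) against RPKM in Luc KD (x axis), both on log axes, for the 2617 expressed protein-coding genes. Each point is a gene model with 1 merged value per condition, the line marks equal values, blue points are the 30 lowered genes and orange points the 43 raised genes. The lowered genes lie between 10.6 and 154 RPKM in Luc KD, and none is among the genes above 1000 RPKM.

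The gene with the lowest FC stood apart from the rest. KWMTBOMO07274.mrna1 (2955 nt) had 64.2 RPKM in Luc KD, from 23190 reads, against 7.91 RPKM in Siwi KD, from 3034 reads. Siwi KD thus had 12.3% of the control level. The log2 FC was -2.87, and its counting error was 0.04 (SE). It was the fourth most abundant of the 30 genes in Luc KD, and in Siwi KD it was under the expression threshold of 10 RPKM.

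The next gene, KWMTBOMO00538.mrna1 (1879 nt), had 19.1 RPKM in Luc KD (4380 reads) against 3.46 RPKM in Siwi KD (844 reads). The latter was 18.1% of the control, and the log2 FC was -2.17 (counting error 0.06). These were the 2 genes with a log2 FC below -2.

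From the third rank on, the values declined in small steps. The third gene model, of 2242 nt, had 18.4 RPKM in Luc KD against 5.07 RPKM in Siwi KD (log2 FC -1.68). For the fourth, of 1648 nt, 11.4 RPKM in the control stood against 3.23 RPKM in Siwi KD (log2 FC -1.55), the lowest level in Siwi KD among the 30 genes. The fifth, of 687 nt, had 44.9 RPKM in the control and 14.7 RPKM after Siwi depletion (log2 FC -1.55). In these 3 genes, Siwi KD had between 27.5% and 32.7% of the Luc KD level.

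A further 9 genes had a log2 FC between -1.5 and -1.2. The most abundant of them, a gene model of 1127 nt, had 98.5 RPKM in Luc KD (13564 reads) against 35.4 RPKM in Siwi KD (5184 reads). Its log2 FC was -1.45, and it stayed well above the expression threshold in both conditions. A gene model of 781 nt had 10.7 RPKM in the control and 3.28 RPKM after Siwi depletion (log2 FC -1.45). It was close to the threshold of 10 RPKM in the control already, and had 332 reads in Siwi KD, the fewest of any of the 30 genes.

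Another of these 9, of 1564 nt, had 23.4 RPKM in the control and 7.91 RPKM after Siwi depletion (log2 FC -1.45). The one of 598 nt had 18.5 RPKM in the control and 6.42 RPKM after Siwi depletion (log2 FC -1.39), and that of 1289 nt had 33.2 and 12.8 RPKM (log2 FC -1.31). The longest of the 30, of 4144 nt, also belonged here, with 27.1 and 10.4 RPKM (log2 FC -1.30).

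The remaining 16 genes had a log2 FC between -1.17 and -1.01. They included the 2 genes with the highest RPKM in Luc KD. Of these, the gene model of 1234 nt had 154 RPKM in Luc KD (23262 reads) against 75.4 RPKM in Siwi KD (12080 reads), and its log2 FC was -1.02 (counting error 0.02). That of 1261 nt had 104 RPKM in the control and 50.7 RPKM after Siwi depletion (log2 FC -1.02). Within these 16, a gene model of 695 nt followed in abundance, with 58.4 and 27.3 RPKM (log2 FC -1.07). In these 3 genes, the most abundant of the 16 in Luc KD, Siwi KD had 46.6% to 49.0% of the Luc KD level.

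**Figure D2:**
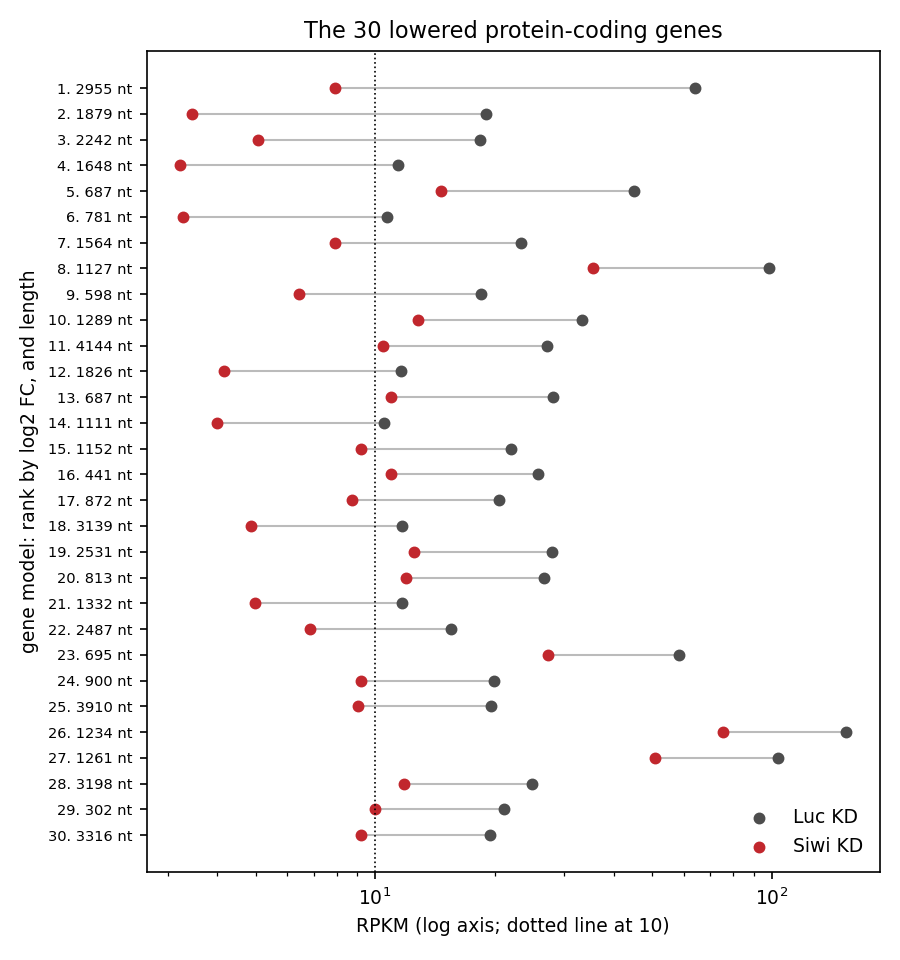
RPKM (log x axis) of each of the 30 lowered genes in Luc KD (grey) and Siwi KD (red), 1 row per gene model in the order of log2 FC, labelled with rank and length. The dotted line marks 10 RPKM. The gene of 2955 nt has the widest gap, and 17 of the 30 genes cross the line between the conditions.

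The edge of the group was not marked by a gap in the values. The 5 genes just inside the threshold had log2 FCs from -1.02 (the gene model of 1234 nt) to -1.01 (the gene model of 3316 nt, 19.5 RPKM in the control and 9.20 RPKM after Siwi depletion). The 5 genes just outside it had log2 FCs from -0.997 to -0.936, and lengths between 472 and 1811 nt. The first of these, a gene model of 472 nt, had 19.4 and 9.21 RPKM, nearly the values of the gene of 3316 nt. The 95% counting interval of the FC lay wholly below -1 for 18 of the 30 genes and reached -1 for the other 12. For 9 genes outside the group, the interval extended below -1. The counting errors of the 30 genes ranged from 0.02 to 0.12 (median 0.06). Counting error was thus small beside every FC of the group, but it spanned the threshold for the genes near it.

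In Luc KD, the lowered genes were of ordinary abundance. Their RPKM ranged from 10.6 to 154 with a median of 21.6 (quartiles 18.4 and 28.0), against 18.6 for all expressed protein-coding genes (quartiles 12.9 and 34.2). Among them, 23 were under 30 RPKM, 5 were above 50 RPKM and 2 were above 100 RPKM. In Siwi KD, the median of the 30 genes was 9.20 RPKM (3.23 to 75.4), so the middle of the group lay just under the expression threshold. All 30 passed the threshold in Luc KD, which the criteria require of a lowered gene. The 141 expressed genes at or under 10 RPKM in Luc KD could therefore not be among them, although they count in the median of all expressed genes. Of the 30, 13 also passed the threshold in Siwi KD and 17 did not. A gene starting near the threshold could not meet the FC criterion without crossing it. In all, 225 expressed protein-coding genes passed in Luc KD only, and these 17 were among them.

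The share of genes that were lowered was similar in size at most levels in Luc KD. It was 1.04% (13 of 1255 genes) above 10 and up to 20 RPKM, 1.51% (12 of 794) up to 50 RPKM, 1.39% (3 of 216) up to 100 RPKM and 1.17% (2 of 171) up to 1000 RPKM. Of the 40 genes above 1000 RPKM, 0 were lowered. The raised genes were distributed differently, because 31 of the 43 passed the expression threshold in Siwi KD only. Their median was 5.21 RPKM in Luc KD, and 17.9 RPKM after Siwi depletion. Both distributions follow in part from a threshold that may be passed in either condition.

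Genes of low abundance were also examined. Of 6420 protein-coding genes that stayed at or under 10 RPKM in both conditions and had at least 100 reads, 19 (0.296%) had a log2 FC below -1 and 59 (0.919%) had one above 1. The pseudo-count of 1 compresses the FC of such genes, so these shares cannot be set against those of the expressed genes.

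Summed RPKM gives the part of the lowered genes in protein-coding RNA. Their RPKM summed to 1003 in Luc KD and to 403 in Siwi KD, which was 0.562% and 0.251% of the sum over all expressed protein-coding genes. The difference of 600 RPKM was 59.8% of their own sum in Luc KD. It made up 3.41% of the net difference of 17590 RPKM over the expressed protein-coding genes, and 2.64% of the summed difference of the 1808 genes with a lower RPKM in Siwi KD. The share of the net difference depended on the scaling, but the lowered genes were chosen anew under each. It was 7.57% for the 18 genes lowered when values were scaled to reads on protein-coding genes. Relative to the protein-coding median, it was 13.4% for 17 genes. The net difference itself was also smaller on these scales (4258 and 2341 RPKM). The share of all 30 genes was not taken on them. Ranked by difference in the deposited RPKM, the first of the 30 genes was in place 66 of the expressed genes.

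Within the group, 5 genes held 47.0% of the difference. The gene of 1234 nt held 13.1%, that of 1127 nt 10.5%, KWMTBOMO07274.mrna1 9.38%, that of 1261 nt 8.80% and that of 695 nt 5.20%. Except for the gene of 2955 nt and that of 1127 nt, these were genes with FCs near the threshold whose level in Luc KD was high. The 43 raised genes went the other way by more, from 531 RPKM in Luc KD to 2451 RPKM in Siwi KD.

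Length was not used to choose the genes, although it enters RPKM. The lowered genes ranged in length from 302 to 4144 nt, and their median was 1275 nt (quartiles 828 and 2426 nt). The median was 1279 nt for all expressed protein-coding genes (quartiles 831 and 1903 nt) and 1326 nt for the raised genes. Medians of the lowered genes and of all expressed genes were thus 4 nt apart, whereas the upper quartile of the lowered genes was higher. Under 1000 nt, there were 10 lowered genes (33.3%), 35.2% of all expressed genes and 23.3% of the raised genes. Above 3000 nt, there were 5 lowered genes (16.7%), against 7.37% of all expressed genes and 6.98% (3 genes) of the raised genes. These shares rest on 5 and 3 genes, no test was made, and 2 of the 5 (3316 and 3910 nt) belong to the stretch of consecutive identifiers described below. Counted the other way, 2.59% of the 193 expressed genes longer than 3000 nt were lowered, 0.988% of the 1113 genes from above 1000 to 2000 nt, and 2.00% (2 genes) of the 100 genes of 500 nt or less. The higher values above 3000 nt did not hold relative to the protein-coding median. On that scale, 1 of 17 lowered genes (5.88%), the gene of 4144 nt, was longer than 3000 nt, and 0.518% of the 193 long genes were lowered, against 0.719% of the 1113 genes from above 1000 to 2000 nt and 1.00% of the 100 genes of 500 nt or less.

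**Figure D3:**
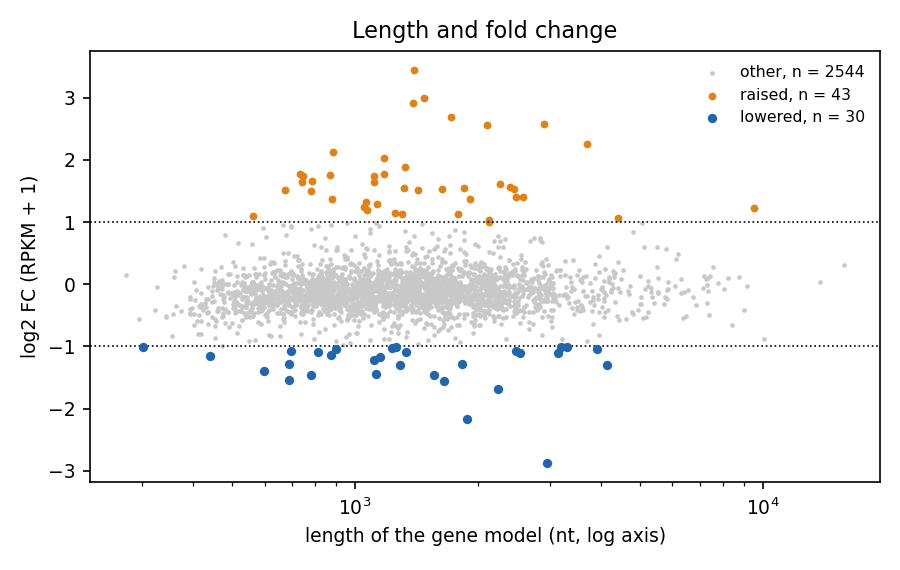
log2 FC (y axis, RPKM + 1) against the length of the gene model (nt, log x axis) for the 2617 expressed protein-coding genes. Dotted lines mark log2 FCs of -1 and 1, blue points are the 30 lowered genes and orange points the 43 raised genes. The lowered genes cover lengths from 302 to 4144 nt and sit mostly close to the lower line.

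The 5 lowered genes longer than 3000 nt had 11.7 to 27.1 RPKM in Luc KD, and 4.87 to 11.8 RPKM after Siwi depletion. Their log2 FCs were -1.30 (4144 nt), -1.11 (3139 nt), -1.04 (3910 nt), -1.01 (3198 nt) and -1.01 (3316 nt).

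The identifiers of the gene models carry a running number, which was the only other property in the table. Whether neighbouring numbers are neighbours in the genome is not given in the sources used here. Of the 30 lowered genes, 10 had another lowered gene within 10 numbers, in 4 groups of 2, 4, 2 and 2 genes. Of the 43 raised genes, 0 had another raised gene within 10 numbers. Relative to the protein-coding median, however, 2 of 17 lowered genes and 8 of 57 raised genes had such a neighbour, so the contrast between the directions depended on the scaling. As background, 10 of the 85 expressed gene models within 10 numbers of a lowered gene were lowered, against 1.15% of all expressed protein-coding genes. Around the raised genes, 0 of 122 were raised, against 1.64%. No such background was taken relative to the median. Closeness of numbers was examined after the values had been seen, and is a description.

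The group of 4 lay in a stretch of 5 consecutive numbers, all protein-coding, whose levels in Siwi KD were similar fractions of those in Luc KD. The FC threshold chose 4 of these 5, and 16 of the 30 lowered genes had log2 FCs between -1.17 and -1.01. The similarity within the stretch is thus in part set by the selection. The first gene model (2531 nt) had 8636 reads in the control and 4106 after Siwi depletion, or 27.9 and 12.5 RPKM (log2 FC -1.10). The second (3316 nt) had 7892 and 3958 reads, or 19.5 and 9.20 RPKM (log2 FC -1.01). The third (2487 nt) had 4730 and 2214 reads, or 15.6 and 6.86 RPKM (log2 FC -1.08).

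The fourth (467 nt) had 322 and 138 reads, or 5.64 and 2.28 RPKM, and was therefore not among the 30 genes. Its log2 FC of -1.02 was within the range of the other 4, but the pseudo-count compresses the FC at such low levels. By RPKM alone, the fourth had 40.4% of the Luc KD level in Siwi KD, against 44.1% to 47.2% in the other 4. Its counting error, 0.15, was the largest of the 5. The fifth (3910 nt) had 9388 and 4596 reads, or 19.6 and 9.06 RPKM (log2 FC -1.04). In all 5, RPKM in Siwi KD was between 40.4% and 47.2% of that in Luc KD, although their lengths and levels differed severalfold.

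The gene models with the 10 numbers before and the 10 numbers after the stretch did not share this. Of these 20, 17 were protein-coding, with log2 FCs from -0.30 to 0.62, and 3 were annotated as transposons. Of the 17, only 3 were above 10 RPKM in either condition, and the pseudo-count compresses the FCs of the others. By RPKM alone, Siwi KD had 79.1% to 159% of the Luc KD level in the 17. Among protein-coding gene models with at least 100 reads, this stretch of 5 was the longest of consecutive numbers with a log2 FC below -1, and above 1 the longest stretch had 2. Relative to the median of the expressed protein-coding genes, the log2 FCs of the 5 were -0.97 to -0.87, so that none (0) of them would then pass -1, while the similarity among them is unaffected. Reads were mapped in a mode that lets similar sequences share reads. Whether the 5 models are similar in sequence was not tested.

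**Figure D4:**
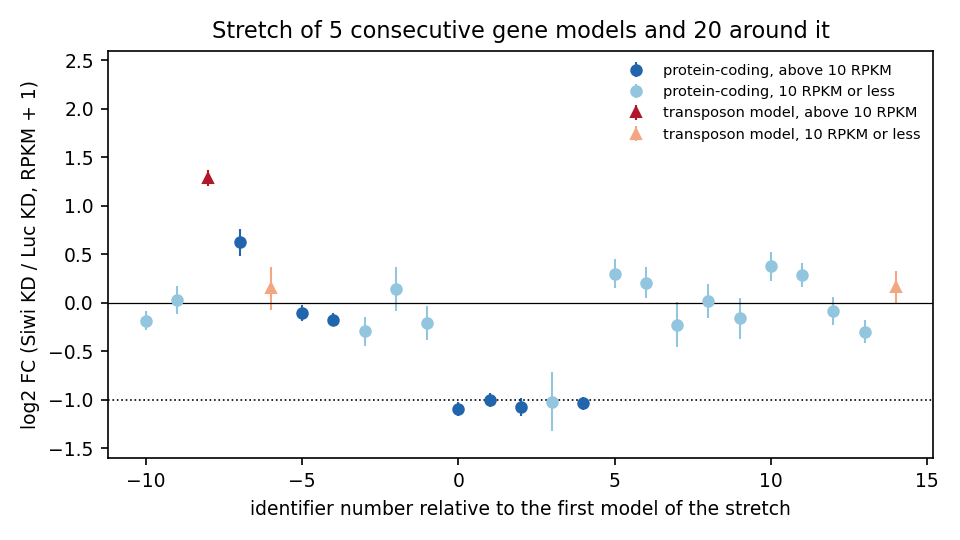
log2 FC (y axis, RPKM + 1) of the 5 gene models of the stretch and of the 20 gene models around it, by identifier number relative to the first of the stretch (x axis). Circles are protein-coding and triangles transposon models, in darker colours above 10 RPKM, and bars are 95% counting intervals from read pairs. The 5 models at 0 to 4 lie between -1.10 and -1.01, below all 20 others.

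The other 3 groups were pairs of unequal FCs. KWMTBOMO00538.mrna1 (log2 FC -2.17) was 8 numbers from the gene model of 1289 nt (-1.31). That of 2242 nt (-1.68) was 9 numbers from that of 1234 nt (-1.02). In the last pair, the gene model of 1261 nt (-1.02) was 3 numbers from one of 687 nt, which had 28.1 and 10.9 RPKM (-1.28). The expressed gene models with numbers directly next to a lowered gene, other than lowered genes themselves, numbered 12. Their median log2 FC was -0.21, and 10 of the 12 were below the median of all expressed protein-coding genes, -0.13. For the raised genes there were 14 such neighbours, with a median of -0.15, and 7 of them were below the overall median. At wider distances, below the overall median were 26 of 47 other neighbours of the lowered genes within 5 numbers (29 of 65 for the raised genes) and 39 of 75 within 10 numbers (53 of 122 for the raised genes).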

How the data were processed

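Total RNA was sequenced as paired-end reads from 4 libraries, 2 each for Luc KD and Siwi KD, with 68702400 to 81135072 reads per library; whether the replicates were separate cultures is given only as 2 independent experiments. The authors trimmed the reads (Trim Galore 0.6.6, per the submitters' processing notes), aligned them by STAR to the genome and to gene models and transposons in random and multiple counting modes, and merged replicates. The deposited counts are sense reads per sequence, without normalization; all were even (0 odd), as if each pair counted as 2 reads. For the deposited RPKM values, the authors divided counts by sequence length (nt) and by genome-mapped reads. In all, 77350240 reads were counted in Luc KD and 84961588 in Siwi KD.

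FCs were log2 ratios of RPKM + 1. Counting errors used read pairs (delta method) and 95% intervals were 1.96 errors wide on each side. The fit between libraries, the replicate block and omission of replicates could not be run on merged values, so descriptions replaced them. The members and lists were chosen with earlier results of these data known. Identifiers were printed for the 2 lowest FCs. By rank and length, the 10 lowest FCs, the 10 highest RPKM in Luc KD and 5 genes on either side of the threshold were eligible, and others (the gene of 4144 nt, genes above 3000 nt and the stretch of 5) were chosen after their values were seen. Alternatives covered pseudo-count, thresholds and scaling, including TMM factors from edgeR 4.0.16, and the protein-coding median for lengths and identifier numbers, added after seeing the data. Python 3.11.15, numpy 2.4.6, pandas 2.3.3, matplotlib 3.10.9 and R 4.3.3 were used. The calculation was tested on counts simulated for 2617 genes, with counting noise alone, no pseudo-count and control levels of at least 10 RPKM. It recovered 100 of 100 genes given a log2 FC of -1.5 and called 0 unchanged genes. No gene was simulated with an FC near the threshold of -1, so the test checks the arithmetic and not the calls made here.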

Additional observations from a re-analysis of the deposited data

How the results depend on the processing

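The number of lowered genes was 34 with a pseudo-count of 0.1, 36 without one and 4 with one of 10, and 33 with TMM or median-of-ratios factors. It was 17 with a threshold of 20 RPKM, 5 with 50 RPKM, 49 with no threshold, 17 relative to the protein-coding median, 18 when scaled to reads on protein-coding genes, 2 at a log2 FC below -2 and 127 at a 1.5-fold change. All 30 genes were kept with the smaller pseudo-counts, without a threshold and with TMM or median-of-ratios factors. The scalings to the median and to protein-coding reads shifted log2 values by 0.13 and 0.11. The median lengths and shares that follow are those of the genes lowered under each setting, and not of the 30 genes throughout. Median length was 1275 nt, and 1247.5 nt with a pseudo-count of 0.1 or none, 1503 nt with 10, 1152 nt at 20 RPKM or relative to the median, 1234 nt at 50 RPKM, 1261 nt with no threshold, TMM or median-of-ratios factors, and 1220.5 nt with protein-coding reads. The share of the net difference in RPKM was 3.41%, and 3.61%, 3.75% and 0.939% with pseudo-counts of 0.1, none and 10, 2.85% and 1.92% at 20 and 50 RPKM, and 3.70% with no threshold. It was 2.95% with TMM and 2.92% with median-of-ratios factors, but 7.57% with protein-coding reads (18 genes) and 13.4% relative to the median (17 genes). The last 2 scalings changed both the genes that were lowered and the net difference, which was 4258 and 2341 RPKM. With members fixed, the median log2 FC of -1.17 was -0.75 with a pseudo-count of 10 and -1.03 relative to the median. No paired analysis was possible because the replicates were merged in the deposited table, and for the same reason no replicate could be left out. Differences between replicates are thus not covered by any value here.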
